A study of Sus scrofa with 48 samples.

Results

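The transcripts described here encode the subunits of the mitochondrial respiratory chain and of the ATP synthase that are carried by nuclear genes. They were chosen by name alone: a probe was a member when its gene name began with NDUF followed by A, B, C, S or V and a digit, with UQCR, with COX followed by a digit from 4 to 8, or with ATP5, or when it was SDHA, SDHB, SDHC or SDHD. On the porcine array, 210 of 60305 probes and 76 of 45222 gene names met this rule. Each gene was represented by its brightest probe among those tested, so that 75 genes and 205 probes entered the statistics. The remaining gene, COX8H, a heart isoform of a cytochrome c oxidase subunit, was not tested because neither of its probes was well above background on more than 1 array. Single probes of COX7C, NDUFA4L2 and NDUFB5 were left out because they were well above background on fewer than 12 arrays, while other probes of these genes were kept.

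Liver RNA was hybridized to 1 Agilent one-colour array per pig for 48 growing Large White barrows, that is, castrated males. They came from a low RFI line and a high RFI line, divergently selected for residual feed intake (RFI), the feed eaten beyond what maintenance and growth predict. In each line, 12 pigs had free access to a low fat and low fiber (LF) diet and 12 to a high fat and high fiber (HF) diet, which gave 4 groups of 12 pigs, named low RFI HF, low RFI LF, high RFI HF and high RFI LF. Fat and fiber were raised together in the HF diet, so that their contributions cannot be told apart, and each direction of selection was represented by a single line. The pigs were the replicates. The number of arrays limits the precision. In bulk liver, fewer cells of a type and less RNA per cell cannot be told apart. From 39666 to 46570 probes were well above background per array, and 45236 probes (32487 gene names) were tested. Of 9 hepatocyte markers, 8 were on the array, and all 8 of these were detected well above background in every pig.

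The respiratory chain sits in the inner mitochondrial membrane. Complex I (NADH dehydrogenase) and complex II (succinate dehydrogenase) pass electrons to ubiquinone, complex III (cytochrome bc1) passes them on to cytochrome c, and complex IV (cytochrome c oxidase) passes them to oxygen. Complexes I, III and IV pump protons out of the matrix, and the ATP synthase uses their return to make ATP, most of which in the hepatocyte is spent on biosynthesis, transport and urea and glucose production. Most subunits are nuclear-encoded, whereas a few core subunits are read from the mitochondrial genome.

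The 75 genes tested comprised 32 subunits of complex I, 3 of complex II, 8 of complex III, 14 names of complex IV and 15 of the ATP synthase. The remaining 3 were matched by name only. These were COX4NB, an endoplasmic reticulum membrane protein named for its place beside COX4I1, COX7A2L, which takes part in assembling respiratory supercomplexes, and ATP5SL, an assembly factor. COX6B and COX6B1 are an older and a newer symbol of the same subunit and both were kept as the array names them. NDUFA4 and NDUFA4L2 were counted with complex IV, where the NDUFA4 protein is now placed. Levels are log2 intensities relative to the median of the tested probes on the same array, and differences between groups are log2 fold changes (log2 FC). A gene was called over- or under-expressed when limma gave P below 0.01 and the fold change (FC) exceeded 1.1 in either direction, and the Benjamini-Hochberg adjusted P over all 45236 tested probes (P-BH) is given beside it.

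The line effect, low RFI minus high RFI over both diets, addressed whether selection for RFI changed these transcripts in the liver. Only NDUFB2 and COX4I2 passed the cut-offs, that is, 2 of 75 members (2.67%), whereas 7.03% of all gene names tested did so. In the low RFI pigs, COX4I2 was over-expressed and NDUFB2 under-expressed. The other complex I members had log2 FC between -0.11 and 0.11, below the FC of 1.1. None of the 75 members passed P-BH of 5% in limma (lowest P-BH 0.063), against 3.97% of all gene names. An unadjusted P below 0.05 was found for 7 of the 75, against 14.9% of all gene names. With slide as a block, quantile normalization, median intensity, the deposited log2 values or arrays centred on their 75th percentile, 1 member passed P-BH of 5%, and with the mean over the probes of each gene 2 did. Members lay on both sides of 0, with 49 above and 26 below, and their median log2 FC was 0.01, as was that of all gene names (0.01). The median log2 FC was 0.02 for complex I, 0.00 for complex II, -0.00 for complex III, 0.02 for complex IV and -0.01 for the ATP synthase.

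The estimates of members were more precise than those of most gene names. The 95% confidence interval of the line effect lay wholly within an FC of 1.1 in either direction for 39 of the 75 members and within an FC of 1.2 for 71. Over all gene names these counts were 4429 and 17731 of 32487. The median half-width of the interval was 0.10 on the log2 scale for members and 0.16 for all gene names.

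**Figure D1:**
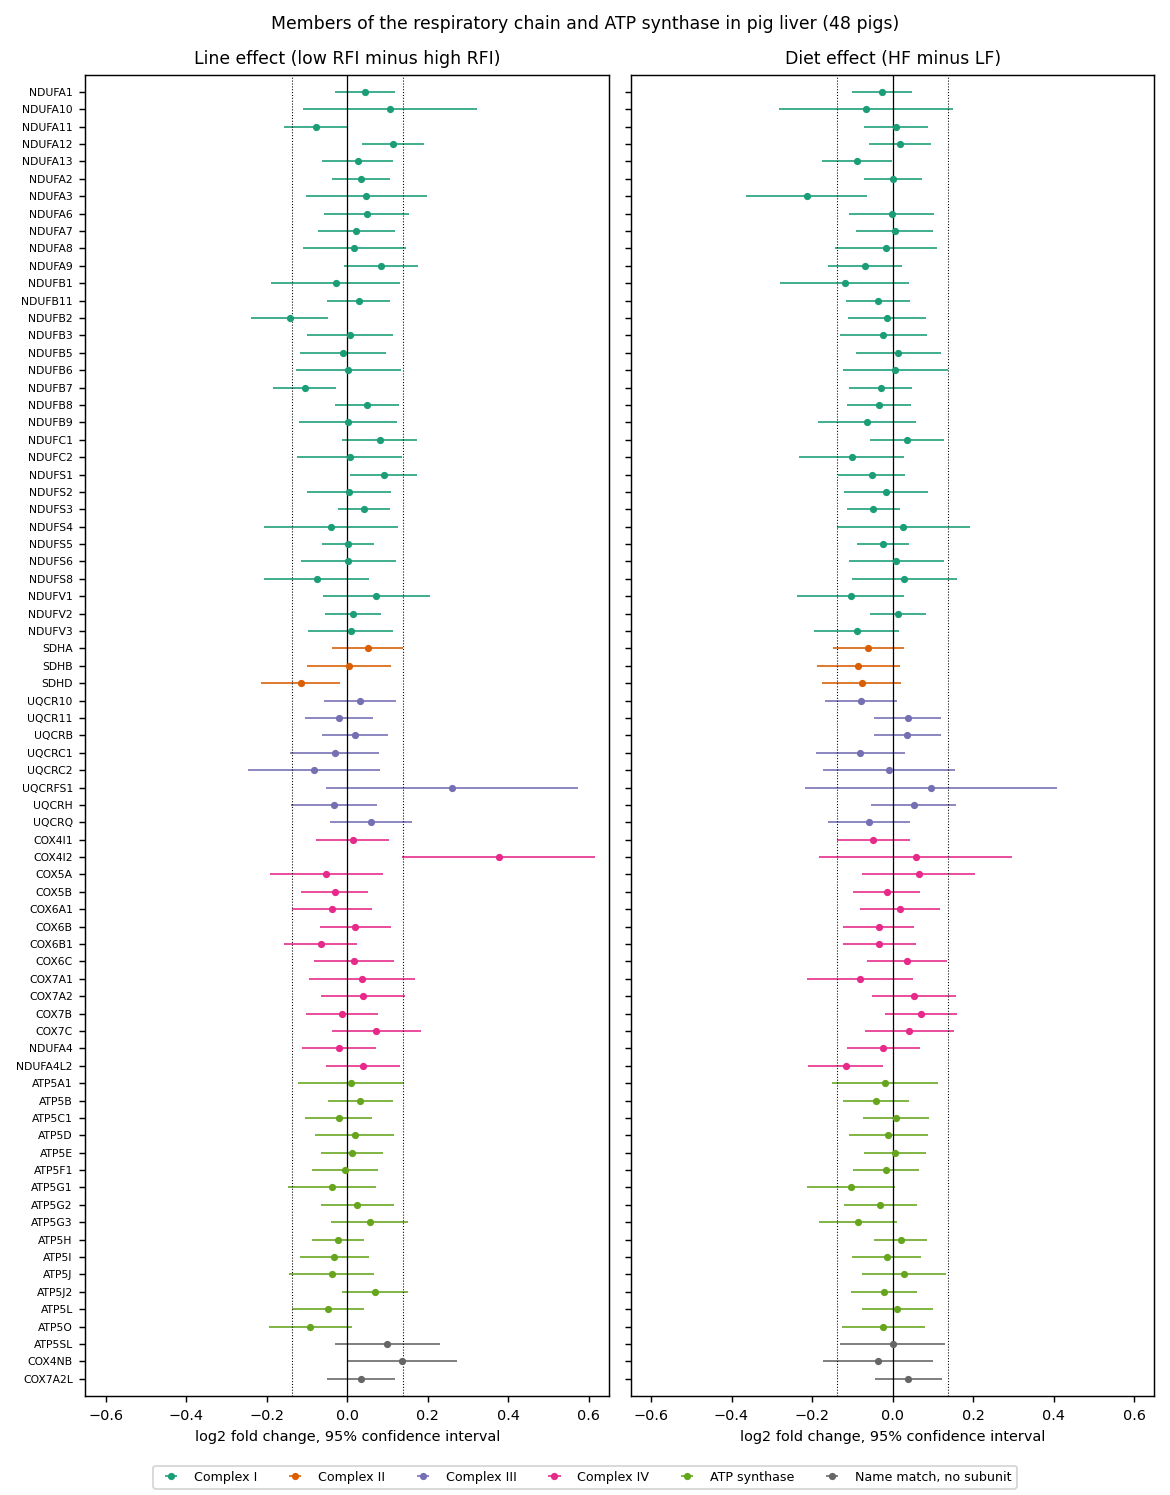
Line effect (left) and diet effect (right) of the 75 members tested, as log2 FC on the horizontal axis with 1 row per gene. Points are limma estimates over 48 pigs, horizontal bars are 95% confidence intervals, colours are complexes and dotted lines mark an FC of 1.1. Most intervals lie close to 0, while COX4I2 and NDUFB2 for line and NDUFA3 for diet have intervals that leave 0 and estimates beyond a dotted line.

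In complex I, 1 of 32 members was called for line. NDUFB2, an accessory subunit of the membrane arm, had levels of 5.92 at the lowest, 6.09 at the median and 6.46 at the highest in the 24 low RFI pigs. The corresponding levels were 5.91, 6.29 and 6.55 in the 24 high RFI pigs. The lines overlapped, with 2 pigs of the high RFI line above all of the low RFI line, and the log2 FC was -0.14 (SE 0.05, FC 1.104, P = 0.00448, P-BH = 0.0855). Within the second of the 2 scan days the log2 FC was -0.10 (P = 0.214). A second NDUFB2 probe, O10654, ranged from 5.63 to 6.20 around a median of 5.89 in the low RFI line and from 5.66 to 6.33 in the high RFI line. The line effect of this probe was -0.16 (SE 0.05, P = 0.00143, P-BH = 0.0405), so that both probes of this gene were lower and this one also passed P-BH of 5%. The call of O10654 was lost in 2 of 14 alternatives to the processing, over which its log2 FC ran from -0.20 to -0.12. The NDUFB2 probes share no run longer than 5 bases. Bases 16 to 45 of the second probe, shown because it carried the lower P-BH, are as follows.
NDUFB2 probe O10654: gtcactttccatatccagatccttcccagt

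The remaining complex I members with the smallest P did not reach both cut-offs. NDUFA12, an accessory subunit of the matrix arm, had a log2 FC of 0.11 (P = 0.00457) and NDUFB7, an accessory subunit facing the intermembrane space, a log2 FC of -0.11 (P = 0.00924). Both were below the FC of 1.1. NDUFS1, the largest iron-sulfur subunit, stood at 0.09 (P = 0.034). NDUFA9 (0.08, P = 0.0718) and NDUFA11 (-0.08, P = 0.0595) had larger P. These estimates thus pointed in both directions within a single complex, while of all 32 complex I members 25 lay above 0 and 7 below.

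In complex IV, 1 of 14 names was called for line. COX4I2, the isoform of subunit 4 known from lung and from cells at low oxygen, was dim. It exceeded background clearly in 24 of 24 low RFI pigs and in 20 of 24 high RFI pigs. Its levels were -3.37 at the lowest, -2.66 at the median and -2.00 at the highest in the low RFI line. In the high RFI line they were -3.77, -3.15 and -1.96, and 7 of the 24 pigs of that line lay below every pig of the low RFI line. The log2 FC was 0.38 (SE 0.12, FC 1.30, P = 0.0028, P-BH = 0.063). It was smaller, though still called, with median intensity without background subtraction (0.18) and with the deposited log2 values (0.19). It was 0.10 (P = 0.0252) after normexp background correction, with an offset of 50, and 0.25 (P = 0.131) within the first scan day, so that the call was lost in both cases. COX4I1, the common isoform of the same subunit, had a log2 FC of 0.01 (95% interval -0.08 to 0.10). The other tissue isoforms were not called either. COX7A1, typical of heart and skeletal muscle, was at 0.04 (-0.10 to 0.17). NDUFA4L2, a paralog of NDUFA4 induced at low oxygen, was at 0.04 (-0.05 to 0.13) by its brightest probe. The second tested NDUFA4L2 probe was at -0.12 and was not called.

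**Figure D2:**
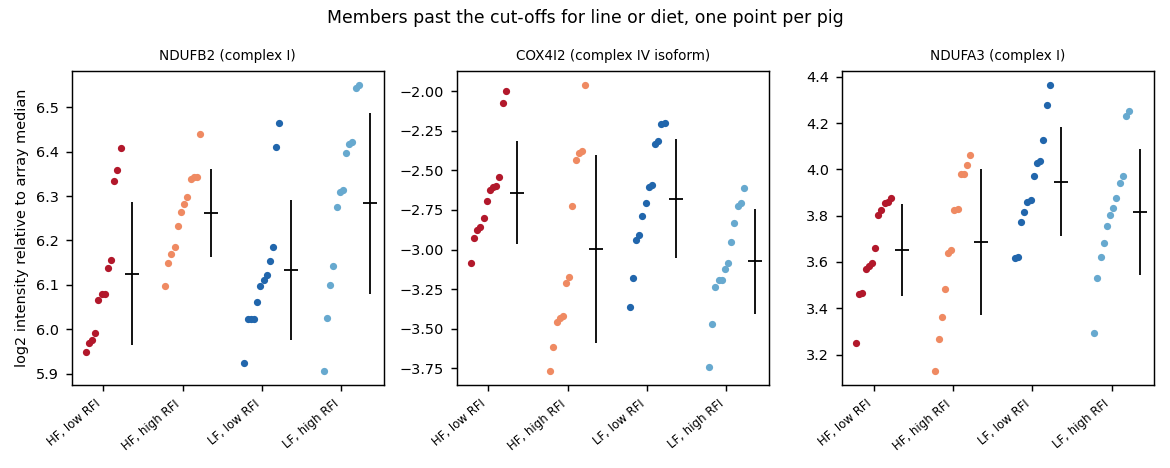
Level (log2 intensity relative to the array median, vertical axis) of the 3 members called for line or diet, NDUFB2, COX4I2 and NDUFA3, with 1 point per pig in each of the 4 groups of 12 pigs. Horizontal bars are group means with the SD. The groups overlap in every panel, and the called differences of 0.14 to 0.38 on the log2 scale are smaller than the SD between pigs (0.16 for NDUFB2, 0.42 for COX4I2 and 0.26 for NDUFA3).

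Complexes II and III and the ATP synthase had no member called for line. In complex II, which also works in the tricarboxylic acid cycle, SDHD, a membrane anchor subunit, had a log2 FC of -0.12 (SE 0.05, P = 0.022). All 9 SDHD probes had a line effect below 0, from -0.20 to -0.04. The catalytic subunit SDHA had 0.05 (P = 0.255) and the iron-sulfur subunit SDHB had 0.00 (P = 0.93). UQCRFS1, the Rieske iron-sulfur subunit of complex III, had the widest spread between pigs of all members (SD 0.55 on the log2 scale) and a log2 FC of 0.26 with an interval from -0.05 to 0.57. It was dim, being well above background on 46 arrays, and 1 low RFI HF pig lay at 0.29 while the median of that group was -2.88. Both values rest on this pig, since without it the SD was 0.32, below that of 2 other members, and the log2 FC was 0.13. In the ATP synthase, ATP5O, the stalk subunit that confers oligomycin sensitivity, had the smallest P, with a log2 FC of -0.09 (P = 0.0785). Among the genes matched by name only, COX4NB had a log2 FC of 0.14 (P = 0.0491).

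For most genes, different probes gave similar line effects. Among the 40 members with several tested probes, the range of the line effect between probes had a median of 0.03 on the log2 scale, and it stayed below the log2 of an FC of 1.1 in 35 of them. ATP5A1, the alpha subunit of the catalytic head of the ATP synthase, was read by 15 probes. In 3 genes, UQCRB, NDUFB9 and COX6B, the range exceeded 0.30, and these are the genes whose probes passed the cut-offs while their brightest probe did not. Counted by probes, 7 of 205 (3.41%) were called for line, 1 higher and 6 lower, against 6.91% of all probes. At P-BH of 5% there were 5 of 205 member probes against 3.93% of all probes.

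UQCRB, a small subunit of complex III known as the ubiquinone-binding protein, had the member probe with the smallest P. Its probe O2995 had levels of 3.85 at the lowest, 4.23 at the median and 5.23 at the highest in the low RFI line. In the high RFI line these levels were 4.78, 4.98 and 5.33. Of the 24 pigs from the low RFI line, 20 lay below every pig of the high RFI line. The log2 FC was -0.64 (SE 0.08, FC 1.56, P = 3.79e-11, P-BH = 1.1e-07), and it was -0.57 in pigs fed the HF diet and -0.72 in pigs fed the LF diet. The other 7 UQCRB probes had line effects between -0.03 and 0.04, and the brightest of them, A_72_P698215, had means of 6.15 in the low RFI line and 6.13 in the high RFI line (log2 FC 0.02, SE 0.04, P = 0.643). According to the array's own annotation, the 7 probes start between bases 356 and 420 of pig mRNA. A_72_P275839 and A_72_P613961 both start at base 403, but their longest shared run is 47 bases. The starts thus do not all refer to a single mRNA sequence. In the same annotation, O2995 was assigned to the gene through a human protein entry. The longest run of bases that O2995 shares with any of the 7 is 6. Stretches of the discordant probe (its bases 11 to 40) and of the brightest probe (its bases 1 to 30) are given here. Both probes carry the same gene name, but only O2995 was called for line.
UQCRB probe O2995: acaatatatgaggatgacgatgtaaaagaa
UQCRB probe A_72_P698215: ggcaaagaaataatcgtatagtctaaatct

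NDUFB9, an accessory subunit of complex I, was split between a pair of overlapping probes and the others. Probe A_72_P473353 had a lowest, median and highest level of 4.93, 6.11 and 6.88 in the low RFI line. In the high RFI line these were 5.97, 6.68 and 6.91, so that the upper ends nearly coincided while 8 of the 24 pigs of the low RFI line lay below every pig of the high RFI line. The log2 FC was -0.62 (SE 0.13, P = 1.12e-05, P-BH = 0.00129). Probe A_72_P680773 went the same way with a smaller log2 FC of -0.26 (SE 0.08, P = 0.0011, P-BH = 0.034), from a median of 6.47 in the low RFI line and 6.76 in the high RFI line, and here too 8 pigs of the low RFI line lay below all of the other line. Across their overlap of 51 bases these probes differ by the substitution T51C, with positions counted from 1 at the 5′ end of A_72_P473353, whose base is given first. They start at bases 617 and 608 of the same transcript. The call of A_72_P680773 was lost in 2 of 14 alternatives to the processing, over which its log2 FC ran from -0.27 to -0.25. The brightest NDUFB9 probe, O10220, had a log2 FC of 0.00 (P = 0.976), and A_72_P574759, which starts at base 388, had -0.09 (P = 0.0768). The last bases of the overlap are shown with the differing base in capitals, because it is the only difference within the overlap.
NDUFB9 probe A_72_P473353: aggacatacgcttgccctaataaagtaacT
NDUFB9 probe A_72_P680773: aggacatacgcttgccctaataaagtaacC

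COX6B, a subunit of complex IV on the intermembrane side, had 3 probes. A_72_P303339 ranged from 1.76 to 3.21 around a median of 2.57 in the low RFI line and from 2.06 to 3.46 around 2.98 in the high RFI line, and its log2 FC was -0.38 (SE 0.10, P = 0.000531, P-BH = 0.0204). The lines overlapped over most of their range, and within either scan day alone, with 24 pigs each, P was 0.0177 and 0.0155. The other two probes, A_72_P211467 and A_72_P507113, which share 58 of their 60 bases, had log2 FC of 0.02 (P = 0.64) and 0.01 (P = 0.878). The called probe shares only its first 16 bases with A_72_P211467, which are the last bases of that probe and are printed in capitals. The probe filed under the newer symbol COX6B1, O12436, had a log2 FC of -0.07 (P = 0.149).
COX6B probe A_72_P211467: actaataataaataCTCACTGGAAAAGTGT
COX6B probe A_72_P303339: CTCACTGGAAAAGTGTaaagctgtgtacgt

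**Figure D3:**
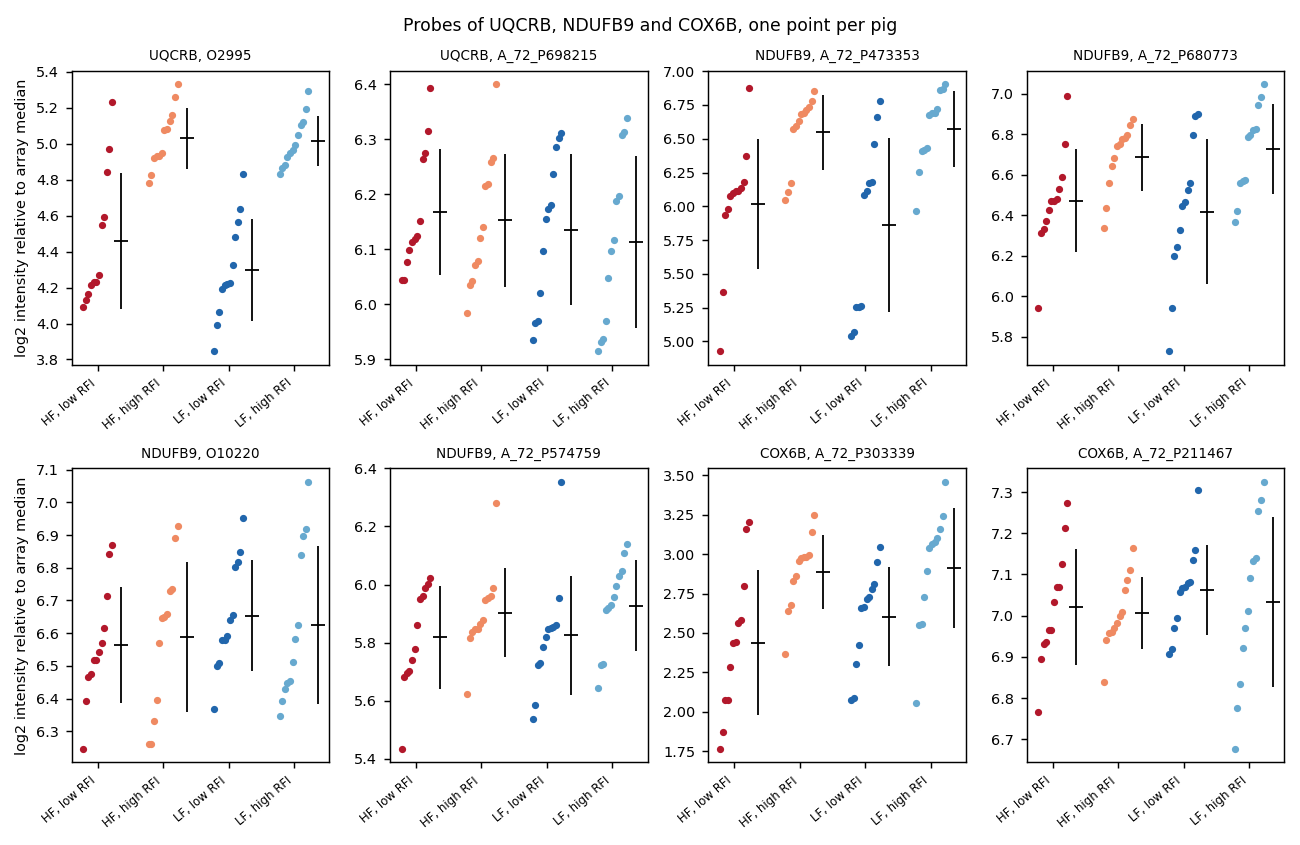
Levels (log2 intensity relative to the array median, vertical axis) of 8 single probes of UQCRB, NDUFB9 and COX6B in the 4 groups of 12 pigs, with 1 point per pig and black bars for the group mean and SD. The low RFI groups lie lower for UQCRB O2995 (log2 FC for line -0.64) but not for UQCRB A_72_P698215 (0.02), and some low RFI pigs of both diets fall well below all others for NDUFB9 A_72_P473353.

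Within each diet taken alone, no member was called for line by its brightest probe, neither in pigs fed the HF diet (3.5% of all gene names called) nor in pigs fed the LF diet (3.91% of all gene names called). In limma, 2 and 4 of the 75 members had an unadjusted P below 0.05 in the HF and LF diets, respectively. Of all gene names, 9.27% and 9.99% did so. The counts by an unmoderated analysis of variance with the cut-offs of the study were 0 and 0. With 12 pigs per group the intervals are wider, and these counts of 0 do not show that the lines were alike within a diet. Among single probes, UQCRB O2995 and NDUFB9 A_72_P473353 were called lower in the low RFI line in both diets, COX6B A_72_P303339 in the HF diet and NDUFB9 A_72_P680773 in the LF diet.

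The diet effect, HF minus LF over both lines, addressed the response of these transcripts to fat and fiber. NDUFA3 was under-expressed in pigs fed the HF diet and was the only one of 75 members called (1.33%), against 4.45% of all gene names. No member passed P-BH of 5% in limma (lowest P-BH 0.167), against 0.465% of all gene names. An unadjusted P below 0.05 was found for 3 of the 75, against 14.3% of all gene names. Members above and below 0 numbered 28 and 47, and the median log2 FC was -0.02, as was that of all gene names (-0.02). The 95% interval lay within an FC of 1.1 for 41 members and within an FC of 1.2 for 70.

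NDUFA3, a small accessory subunit in the membrane arm of complex I, had levels of 3.13 at the lowest, 3.66 at the median and 4.06 at the highest in the 24 pigs fed the HF diet. In the 24 pigs fed the LF diet the levels were 3.29, 3.87 and 4.36, so that the diets overlapped over most of their range. The log2 FC was -0.21 (SE 0.07, FC 1.16, P = 0.00631, P-BH = 0.167). It was -0.17 (P = 0.0127) after normexp background correction, and -0.28 (P = 0.0168) and -0.15 (P = 0.145) within the first and second scan days, so that the call was lost each time. NDUFA4L2 (-0.12, P = 0.0139) and NDUFA13 (-0.09, P = 0.0486), another accessory subunit of complex I, did not reach the cut-offs, and neither did NDUFV3 (-0.09, P = 0.0925) and NDUFC2 (-0.10, P = 0.122).

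By complex, the median diet effect was -0.02 for complex I, -0.08 for complex II, 0.01 for complex III, 0.00 for complex IV and -0.02 for the ATP synthase. The 3 complex II members gave similar estimates, with log2 FC of -0.06 for SDHA, -0.08 for SDHB and -0.08 for SDHD, each with an interval that included 0. The SDHD value was the lowest of its 9 probes, which ranged from -0.08 to 0.16. The ring subunit genes ATP5G1 (-0.10, P = 0.0631) and ATP5G3 (-0.09, P = 0.0768), which encode the same mature proton-carrying protein, had the smallest P in the ATP synthase. In complexes III and IV the smallest P belonged to UQCR10 (-0.08, P = 0.08) and, after NDUFA4L2, to COX7B (0.07, P = 0.118).

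Within the low RFI line, 2 members were called and both were lower with the HF diet, against 2.72% of all gene names called in that line. They were NDUFA3, with a log2 FC of -0.30 (P = 0.00715, P-BH = 0.350), and NDUFA4L2, with a log2 FC of -0.18 (P = 0.00664, P-BH = 0.346). No member was called in limma within the high RFI line, where 1.61% of all gene names were. There, 1 member had an unadjusted P below 0.05, against 6.59% of all gene names. The unmoderated analysis of variance gave 0 as well. The corresponding values in the high RFI line were -0.13 (P = 0.224) and -0.05 (P = 0.442). The interaction, which tests the difference between lines, passed for neither gene (P = 0.269 for NDUFA3 and P = 0.151 for NDUFA4L2). Within either scan day, neither gene passed in the low RFI line.

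No member showed an interaction between line and diet. The count was 0 of 75 in limma and 0 by the unmoderated analysis of variance, against 0.406% of all gene names, and 0 of 75 members had an unadjusted P below 0.05 whereas 815 of 32487 gene names did. The median of the interaction was 0.01 on the log2 scale, but it was 0.12 within the first scan day and -0.11 within the second. Its intervals were wider than those of the main effects, and those of 49 members lay within an FC of 1.2.

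The 13 subunits read from the mitochondrial genome were described beside the nuclear-encoded members, since the same complexes are built from both. For diet, by the brightest probe of each, 5 of these 13 genes were under-expressed with the HF diet. All 13 had estimates below 0 and the median log2 FC was -0.19. In comparison, 2.39% of all gene names were called lower with the HF diet, the median of all gene names was -0.02, and 1 of the 75 nuclear-encoded members was called. The difference between the nuclear and mitochondrial lists was not itself tested. The mitochondrial genes are read from a single genome as long precursors, so that their values are not independent of each other.

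ND1, a core subunit of complex I, had levels of 9.32, 9.84 and 10.22 (lowest, median and highest) with the HF diet and of 9.64, 10.01 and 10.52 with the LF diet, with a log2 FC of -0.20 (P = 0.00196, P-BH = 0.113). ATP8, a subunit of the ATP synthase, had levels of 7.44, 8.02 and 8.75 with the HF diet and of 7.99, 8.37 and 9.19 with the LF diet, with a log2 FC of -0.31 (P = 0.00288, P-BH = 0.129). Pigs of both diets overlapped for either gene. The other genes called were ND2 (-0.24, P = 0.00287), ND4 (-0.26, P = 0.00346) and ATP6 (-0.16, P = 0.0079). The brightest probe of COX1, the catalytic subunit of complex IV, had P = 0.00344 with a log2 FC of -0.13, below the FC cut-off. These calls depend on the probe chosen. Of single probes, 23 of 25 for COX1 and 18 of 21 for CYTB were called lower, against 6 of 13 for ND2 and 4 of 11 for ND4. None passed P-BH of 5%.

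Among the 129 probes of the 13 genes, 88 were called lower and 0 higher with the HF diet, and all 129 had a diet effect below 0, with a median of -0.21. Over all probes tested, 2.54% were called lower. No probe passed P-BH of 5%, the lowest value being 0.067. The call was not stable to the handling of the arrays. With all probes of a gene averaged in place of the brightest, 9 of the 13 genes were called. After quantile normalization 2 of the 13 genes were called and the median became -0.10. Within the first scan day the count was 5 (median -0.25) and within the second scan day it was 0 (median -0.10), each with 24 pigs. For line, all 13 genes had estimates below 0 as well, with a median of -0.08, and none was called.

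**Figure D4:**
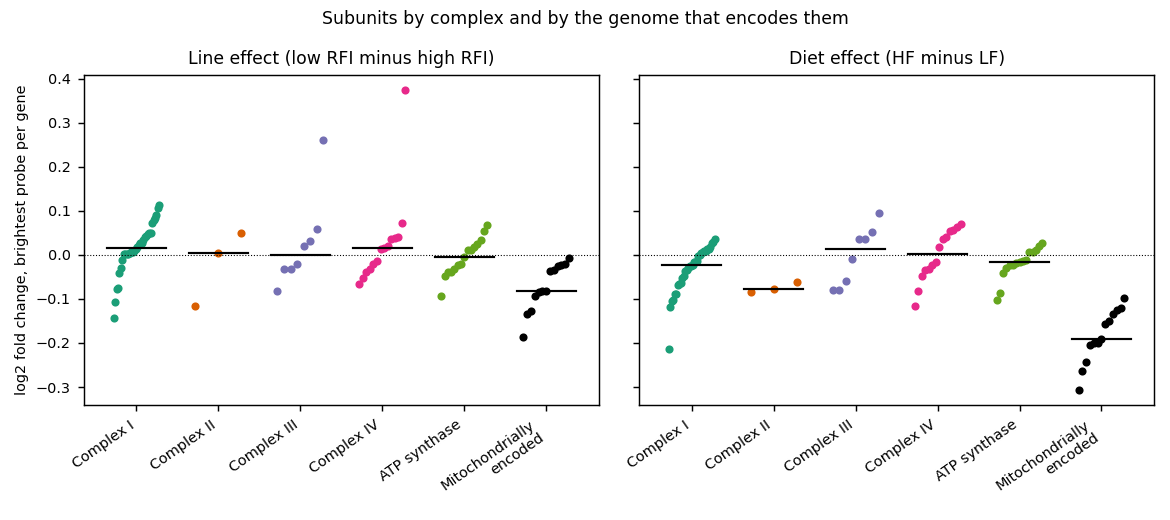
Line effect and diet effect as log2 FC (vertical axis) for each gene, grouped by complex for the nuclear-encoded members and with the 13 mitochondrially encoded subunits as a separate group. Each point is a gene and black bars are medians over genes. For diet the mitochondrially encoded genes all lie below 0 with a median of -0.19, whereas the nuclear-encoded members of each complex scatter about 0, except for the 3 genes of complex II at a median of -0.08.

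Between pigs of the same group, the members tended to be high or low together. After the mean of each group was removed, the correlation between members over 48 pigs had a median of 0.384 over 2775 pairs (quartiles 0.202 and 0.540), and 91.0% of pairs were above 0. The median was 0.376 for the 723 pairs within a complex and 0.386 for the 2052 pairs between complexes, and it was 0.00999 between members and the 32412 other gene names. These are descriptions over points that share the array and its centring. The first principal component held 40.5% of the variance of the members, with the same sign for 74 of 75, and after removal of slide means the median correlation was 0.390.

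ATP5L and ATP5I, small membrane subunits of the ATP synthase, had the highest median correlation with the other members (0.576 and 0.557), followed by NDUFS5 (0.552) and ATP5G3 (0.544). COX4I2 (-0.0925) and NDUFS1 (-0.00946) varied apart from the module.

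The mean level over the 75 members differed little between groups. It ranged from 5.17 to 5.45 in low RFI HF pigs and from 5.17 to 5.46 in high RFI HF pigs. With the LF diet it ranged from 5.21 to 5.52 in the low RFI line and from 5.11 to 5.52 in the high RFI line, so that the ranges of the 4 groups overlapped. Single members spread more. The SD between pigs of UQCRFS1 was 0.55 with all pigs and 0.32 without the pig described above, and the other members with the widest spread were COX4I2 (0.42), NDUFA10 (0.38), NDUFS4 (0.29) and UQCRC2 (0.28) on the log2 scale. The SD of the mean level between pigs within groups was 0.10 on the log2 scale, of which slide accounted for 15.3% and scan day for 1.86% of the variance.

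**Figure D5:**
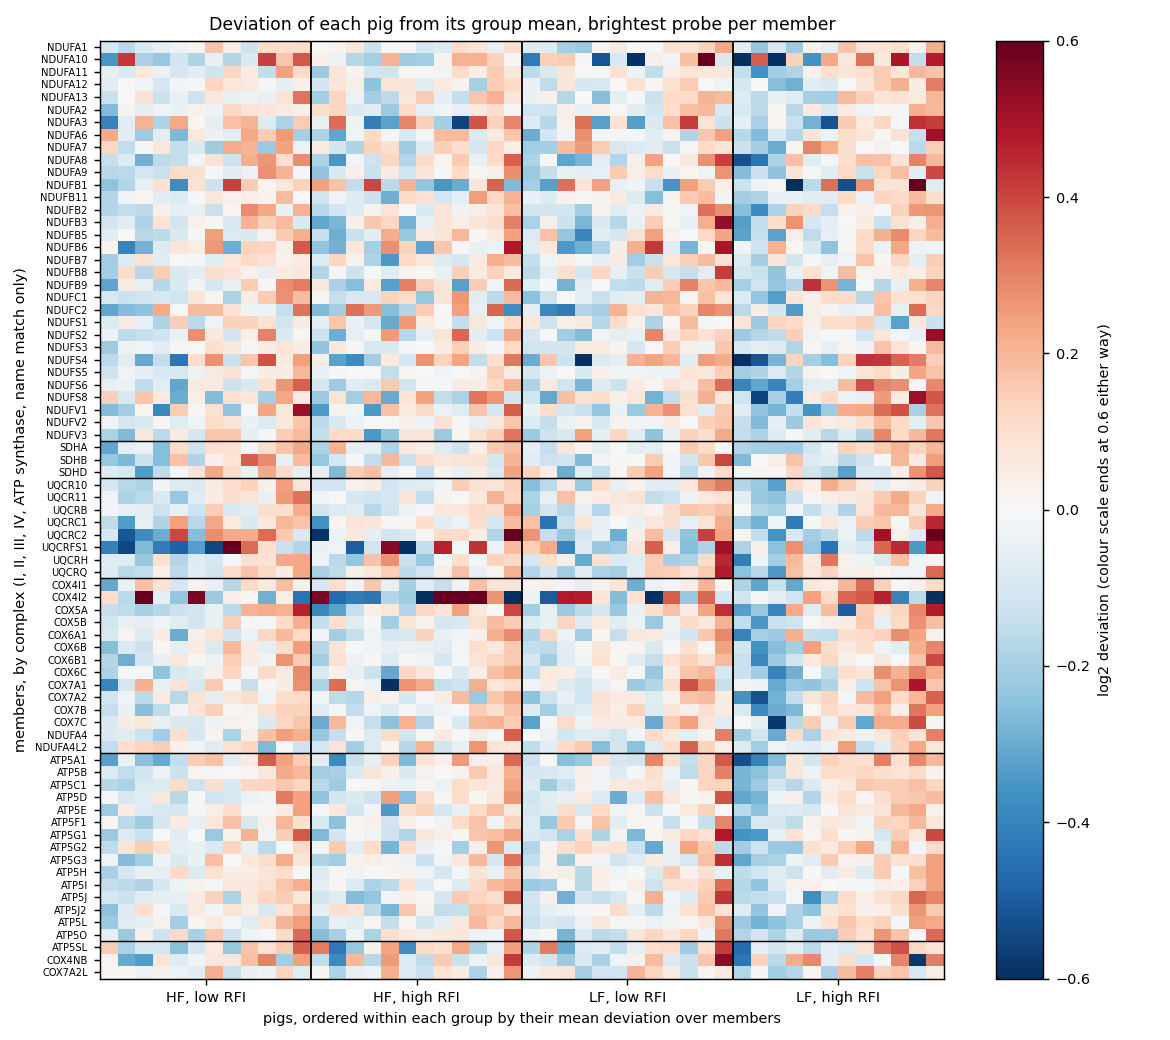
Deviation of each member (rows, ordered by complex) from its group mean in each of the 48 pigs (columns, ordered within the 4 groups by the mean deviation), in log2 units by colour. Columns that are mostly of a single colour are pigs in which most members lay above or below their group mean together, a pattern present in all 4 groups, and the mean level per pig ran from 5.11 to 5.52.

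Genes that feed, build or regulate the chain were examined as further lists. For comparison, 7.03% of all gene names tested were called for line and 4.45% for diet. In limma, an unadjusted P below 0.05 was found for 14.9% and 14.3% of all gene names, respectively. P-BH of 5% was passed by 3.97% for line and 0.465% for diet. Electron carriers and further subunits (9 genes tested) and the carriers of the inner and outer mitochondrial membranes (9 genes) had no call for line or diet in limma. Of the first list 0 genes and of the second 3 genes for line and 1 for diet had an unadjusted P below 0.05. None of 20 assembly factors was called either, with 4 for line and 0 for diet at an unadjusted P below 0.05. Among these, COX17, a copper chaperone for complex IV, had a line effect of -0.12 (P = 0.00617) and TMEM70, an assembly factor of the ATP synthase, of 0.09 (P = 0.00596), both below the FC cut-off. Of 9 regulators of mitochondrial biogenesis, TFB1M, which methylates mitochondrial ribosomal RNA, was over-expressed in the low RFI line with a log2 FC of 0.50 (P = 7.69e-08, P-BH = 3.78e-05), and the other 8 were not called. Of 12 genes of the tricarboxylic acid cycle, IDH3A, a subunit of isocitrate dehydrogenase, was under-expressed in the low RFI line (-0.22, P = 0.00172, P-BH = 0.0456). In this list 2 genes, IDH3A included, passed P-BH of 5%, but only IDH3A also passed the FC cut-off. The line effects of the 12 ran from -0.22 to 0.13, with 5 above and 7 below 0. For diet, CS, citrate synthase, was under-expressed with the HF diet in the same list (-0.21, P = 0.000348, P-BH = 0.0577).

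Markers of other cell types were also read. As above, 7.03% of all gene names were called for line and 4.45% for diet. Unadjusted P was below 0.05 for 14.9% and 14.3% of them in limma, respectively. Of 8 hepatocyte markers tested, APOA1, the main protein of high-density lipoprotein, was over-expressed in the low RFI line (0.15, P = 0.00777, P-BH = 0.121). The list went both ways for line, with 6 above and 2 below 0, from -0.38 to 0.16 (median 0.03). For diet, 7 of the 8 were below 0 (median -0.09, 3 with an unadjusted P below 0.05, none called). The summed level of the list overlapped between groups, from 12.70 to 13.35 with the HF diet and from 12.96 to 13.36 with the LF diet. None of the 6 macrophage, 6 T cell, 5 endothelial, 6 stellate cell and fibroblast and 2 red cell markers was called in limma for line or diet over all pigs. Unadjusted P was below 0.05 for 2 of these genes for line, both macrophage genes, and for diet for 1 macrophage, 1 endothelial, 3 stellate cell and fibroblast and 1 red cell gene. The line effect was below 0 for all 6 macrophage markers (median -0.18, lowest P 0.0102). Their summed level ran from 6.40 to 7.93 in the low RFI line and from 6.63 to 8.13 in the high RFI line. Within the LF diet, 1 of the 6 was called lower in the low RFI line (median -0.28), against 3.91% of all gene names called. Within the HF diet none of the 6 was called (median -0.05), and none was called for the interaction (lowest P 0.111). Of 4 bile duct markers, KRT7 was under-expressed in the low RFI line (-0.35, P = 0.00646, P-BH = 0.108). The others had line effects of -0.24 (KRT19), -0.09 (EPCAM) and 0.40 (SOX9, P = 0.0505). For diet all 4 were above 0 (median 0.26, 2 with an unadjusted P below 0.05, none called). The summed level of that list ran from 0.90 to 2.51 in the low RFI line and from 0.68 to 2.65 in the high RFI line. Of 3 skeletal muscle markers, MYH7 was under-expressed in the low RFI line (-0.44, P = 0.000109, P-BH = 0.00647) and ACTA1 with the HF diet (-0.29, P = 0.0046, P-BH = 0.150). The list went both ways, from -0.44 to 0.07 for line and from -0.29 to 0.13 for diet. Its summed level ran from 4.30 to 5.76 in the low RFI line and from 4.76 to 5.39 in the high RFI line. The part of these markers in the differences of NDUFB2, COX4I2, NDUFA3 and the mitochondrial genes was not tested.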

How the data were processed

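Liver RNA of 48 pigs was labelled with Cy3 and hybridized to Agilent porcine arrays, with 1 array per pig. The authors deposited the Feature Extraction output of each array, whose processed signal is an intensity with the background already subtracted and no normalization between arrays. The authors also deposited log2 values, made from the median intensity of spots that passed their quality filters after median centring per sample, per the labels in R 2.10.0 (submitters' processing notes).

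Here, the log2 of the processed signal was used. Control spots were left out, 483 outlier spots were set to missing, no spot was saturated, spots of the same probe were averaged, and each array was centred to a median of 0 over the tested probes, those well above background on at least 12 arrays. Group means were fitted with limma 3.58.1 (R 4.3.3), and line, diet, their interaction and the effects within each diet and line were contrasts of that fit. The line and diet model and the cut-offs (P below 0.01, FC above 1.1) follow the methods of the study. Arrays were median-centred as in the study, but over other probes and on background-subtracted signal, and the deposited log2 values were an alternative. Here limma replaces the study's ordinary analysis of variance, which was kept as an alternative. The fits were tested on simulated data. The arrays lay on 6 slides of 8, with 2 pigs of each group per slide, scanned on 2 days.

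Members named were those past the cut-offs, the 10 with the smallest P for line and for diet, the 5 with the largest spread between pigs, tissue isoforms, complex II members, UQCRB, which the study discusses, and genes with another probe called than the brightest. The rule also listed the members with the highest and lowest levels, but levels of different probes are not comparable and were not ranked. The members and lists were chosen with earlier results of these data known. Of 76 gene names, 63 matched a RefSeq gene symbol (Sscrofa11.1). Probe sequences and transcript positions are those of the array files.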

Additional observations from a re-analysis of the deposited data

How the results depend on the processing

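Counts and medians over members were recomputed under 14 to 16 alternatives to background, centring, filter, test, batch, model and choice of probe, and 35 values of single member probes under 13 or 14. Of genes that are no members, only the mitochondrially encoded ones were recomputed. Leaving out 1 pig for UQCRFS1 was chosen after seeing the data. Of the values of single probes, 467 kept their direction and their side of the cut-offs, 12 kept the direction but lost the call and 9 changed sign, all 9 without a call. The calls of UQCRB O2995 (log2 FC -0.66 to -0.62) and NDUFB9 A_72_P473353 (-0.70 to -0.54) were kept in each of the 14 alternatives that apply to a single probe. The cause of the changes below was not tested, except that fewer pigs enter within a scan day and more probes where any called probe counts. The number of arrays, and for COX4I2 and UQCRFS1 the signal over background, limit precision.

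Members called for line (2) became 1 with normexp background correction, 1 with probes above background on all arrays only, 1 within each scan day, 3 with the mean over probes (NDUFB9 added) and 5 when any called probe counted. Members called for diet (1) became 0 with normexp and within each scan day. The median interaction (0.01) became 0.12 within the first scan day and -0.11 within the second. Within the LF diet, members called for line (0) became 1 with quantile normalization, 1 with the deposited log2 values, 2 within the first scan day, 1 with the mean over probes and 2 when any called probe counted. Within the HF diet (0) they became 3 when any called probe counted. Members called for diet in the low RFI line (2) became 0 with quantile normalization and within each scan day and 1 with the mean over probes, and in the high RFI line (0) 1 within the first scan day. The mitochondrially encoded genes called lower for diet (5) became 2 with quantile normalization, 0 within the second scan day and 9 with the mean over probes.

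The line effect of SDHB became -0.0069 with median intensity, -0.0037 with the deposited log2 values and -0.026 within the first scan day, and that of COX7A1 -0.00026 within the second. The diet effect of SDHD became 0.0013 with normexp, and that of COX4I2 -0.010 with median intensity, -0.044 with normexp, -0.015 with the deposited values and -0.00082 within the second scan day. With slide as a block, COX4I2, NDUFB2 and NDUFA3 remained the members called for line and diet. No paired analysis was possible because the labels give no replicate number shared between groups.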
